A study of Mus musculus with 4 samples.

Results

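A group of glial cells that carried transcripts of Gdf10, Timp4, Sfrp2 or Egfl6 was examined in single-cell RNA-seq libraries of the embryonic mouse cerebellum. The cells were chosen by their measured counts. A cell barcode was taken when it had at least 2 UMIs (unique molecular identifiers, counts of single captured transcripts) over Gdf10, Timp4, Sfrp2 and Egfl6 and at least 1 UMI over the glial genes Slc1a3, Fabp7 and Sparcl1. It could hold at most 1 UMI of the astroglial genes Aqp4, Slc6a11 and Bcan, none of Olig1, Atoh1 and Barhl1, and at most 2 UMIs of 6 genes of dividing cells. The rule took 1597 of 24856 kept barcodes, or 6.43%. A barcode was kept with 500 genes or more and a mitochondrial share of its UMIs of 10% or less. The cells are called Gdf10/Sfrp2 glia here, after Gdf10, which had first named them, and Sfrp2, the gene of the rule detected in most of them. Timp4 was detected in more of them than Gdf10 in every library but control 2.

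Bergmann glia are the radial glia of the cerebellar cortex. Their cell bodies settle beside the Purkinje cells, and their fibres reach the pial surface and guide migrating granule cells. In the mature cerebellum they clear glutamate through the transporter Slc1a3, and Gdf10, a secreted ligand of the TGF-beta superfamily, is widely used to mark them. Sfrp2 encodes a secreted modulator of Wnt ligands, Timp4 an inhibitor of matrix metalloproteinases and Egfl6 a secreted matrix protein with EGF-like repeats.

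The libraries came from cerebella at E15.5. Control embryos carried Ptf1aCre/+ with the reporter R26LSL-tdT/+, and En1/2 CKO embryos carried both of these together with En1lox/lox and En2lox/lox. Cre from the Ptf1a locus therefore acted in both genotypes, and the mutation and the tdTomato label are limited to cells with a Ptf1a history. Each of the 4 libraries, 2 per genotype, was made from sorted tdT+ cells of a pool of embryos, and the size of the pools is not given in the sources used here. Engrailed 1 and 2, the homeodomain transcription factors that the floxed genes encode, pattern the midbrain and cerebellum.

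The Gdf10/Sfrp2 glia numbered 523 of 10402 kept barcodes in control 1, 66 of 1177 in control 2, 450 of 5236 in En1/2 CKO 1 and 558 of 8041 in En1/2 CKO 2. Their median depth was 1299, 2036, 2833.5 and 1195 UMIs, and their summed depth 865470, 150215, 1536616 and 1284137 UMIs in the same order, so that control 2 rested on far fewer counts. Control 2 also stood apart in quality, since 25.5% of its barcodes passed the filters, against 94.6% in control 1, 63.9% in En1/2 CKO 1 and 69.8% in En1/2 CKO 2. Between 10 and 32 barcodes were shared by any pair of libraries, and 0 of the shared barcodes belonged to Gdf10/Sfrp2 glia in both. Levels are given as CPM, the UMIs of a gene per 1000000 UMIs summed over the class in that library. They are compared for 1 gene across libraries or classes.

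The 4 genes of the rule were not carried by the same share of these cells in each library. Sfrp2 had at least 1 UMI in 69.2% and 68.2% of the control cells and in 71.3% and 74.0% of the mutant cells. Timp4 was detected in 58.3%, 40.9%, 64.9% and 62.4% of cells, and Egfl6 in 24.3%, 16.7%, 16.9% and 15.8%. Gdf10, after which the cells had been named, was detected in 54.5% (exact Clopper-Pearson 95% interval 50.1% to 58.8%) of cells in control 1 and in 59.1% (46.3% to 71.0%) in control 2. It was detected in 27.8% (23.7% to 32.2%) of cells in En1/2 CKO 1 and in 23.5% (20.02% to 27.2%) in En1/2 CKO 2. Most of the cells taken from mutants thus held no Gdf10 UMI. Intervals of shares and floors cover counting error only.

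Cells on either side of the rule's threshold differed by degree. In cells that met every other condition with 1 UMI of the 4 genes, just outside the rule, Slc1a3 stood between 634 and 1381 CPM over the 4 libraries. In cells with 2 UMIs, just inside, it stood between 1135 and 2297 CPM, and in cells with 3 or more UMIs between 1523 and 3579 CPM. Ebf1, a transcription factor of Purkinje cell precursors, went the other way, with 617 to 1526 CPM at 1 UMI, 263 to 1058 CPM at 2 UMIs and 133 to 445 CPM at 3 or more.

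The label of Bergmann glia was set against a list of 28 genes known from these cells, of which 7 belong to the rule. Of the other listed genes, 17 reached a mean of 20 CPM in the Gdf10/Sfrp2 glia or in Aqp4/Bcan astroglia, a class of 385 cells with at least 2 UMIs of Aqp4, Slc6a11 and Bcan and at most 1 of the 4 genes. Against these astroglia, 6 of the 17 stood higher in all 4 libraries (18.7% of all 7876 genes at that level did) and 10 stood lower in all 4 (10.9% of all genes). The 6 were Vim, Zeb2, Wif1, Gria1, Gria4 and Cdc42ep4. The 10 were Hopx, Aldoc, Ptprz1, Ednrb, Slc1a2, Hepacam, Kcnj10, Ndrg2, Ptch1 and Dbi. Against the remaining glia, 3358 cells with at least 3 UMIs of Slc1a3, Fabp7 and Sparcl1, none of the 4 genes or of the astroglial genes and at most 1 UMI of the neuronal genes Stmn2 and Dcx, 13 of 16 listed genes stood higher in all 4 libraries (18.5% of all 7734 genes) and 1, Slc1a2, stood lower (17.3% of all genes).

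Several genes of mature Bergmann glia were low. Kcnj10, an inward rectifier potassium channel, stood at 10.4, 6.66, 12.4 and 13.2 CPM in controls 1 and 2 and mutants 1 and 2, against 35.3, 33.1, 51.3 and 68.5 CPM in the astroglia. Gpr37l1, a receptor of mature astroglia, was between 0 and 7.81 CPM. Dao, the gene of D-amino-acid oxidase, had no count in any of these cells. The listed genes outside the rule thus stood mostly above the remaining glia and mostly below the astroglia, and did not mark these cells as Bergmann glia rather than astroglia. The remaining glia were a mixed class, with Ebf1 at 696 to 2057 CPM and the microglial gene C1qa at 107 to 290.5 CPM, so that the contrast with them is not one between 2 pure cell types.

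Markers of other cell types were counted in the same cells. Of the astroglial markers outside the rule, Agt and Gfap had no count in any library, and Mlc1 stood at 53.3 to 86.7 CPM. The 6 microglial markers summed to 17.3 and 19.97 CPM in the controls, 1.95 CPM in En1/2 CKO 1 and 198 CPM in En1/2 CKO 2, where 16 of the 558 cells also met a microglial gate. The 7 neuronal markers summed to 2887 and 1524 CPM in the controls and to 1399 and 2022 CPM in the mutants. In all kept cells the same neuronal sum was 5091, 2689, 3950.2 and 4141 CPM, and at least 5 UMIs of neuronal genes were found in 34.0%, 13.6%, 15.1% and 21.0% of the Gdf10/Sfrp2 glia. Ttr, the gene of transthyretin made by the choroid plexus, stood at 38.1, 39.9 and 57.3 CPM in 3 libraries and at 7713 CPM in En1/2 CKO 2. There, 10 cells had at least 20 Ttr UMIs. Of the markers of other lineages, Atoh1, Barhl1, Olig1, Sox10 and Skor2 had no count, the first 3 by the rule. Other markers of such lineages were present. The granule lineage markers summed to 895 and 1185 CPM in the controls and to 936 and 796 CPM in the mutants. In the same order, Purkinje markers summed to 705, 732, 310 and 400 CPM, and GABAergic interneuron markers to 580, 379, 284 and 370 CPM. Markers of Ptf1a progenitors summed to 371, 153, 424 and 321 CPM.

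The share of Gdf10/Sfrp2 glia among kept cells was 5.03% (4.62% to 5.47%) in control 1 and 5.61% (4.36% to 7.08%) in control 2. It was 8.59% (7.85% to 9.39%) in En1/2 CKO 1 and 6.94% (6.39% to 7.52%) in En1/2 CKO 2. Both mutant libraries lay above both controls, with a mean of 7.77% ± 1.17 (SD, n = 2) against 5.32% ± 0.410 (SD, n = 2), a difference of 2.45 percentage points. The exact 2-sided permutation test gave p = 0.333, the smallest value that 2 against 2 libraries allow. The rule counts raw UMIs, so that deeper cells pass more readily. After each cell had been thinned to 1000 UMIs and shallower cells left out, the shares were 4.66% and 3.65% in the controls and 5.06% and 5.95% in the mutants, and the difference was 1.35 points. With a stricter filter of 1000 genes and 5% mitochondrial UMIs the groups overlapped, at 7.99% and 6.04% in the controls and 9.47% and 7.93% in the mutants (exact permutation p = 0.667), and the difference was 1.68 points. Shallower cells left out by thinning numbered 2792 and 163 in the controls and 1165 and 3321 in the mutants. With Sfrp2 left out of the rule the difference was 0.883 points. As a share of the 3 glial classes together, these cells made up 29.0% and 27.4% in the controls and 41.3% and 25.3% in the mutants (exact permutation p = 1), so that the groups overlapped. This difference was -2.85 points without En1/2 CKO 1, whose share alone was high.

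**Figure D1:**
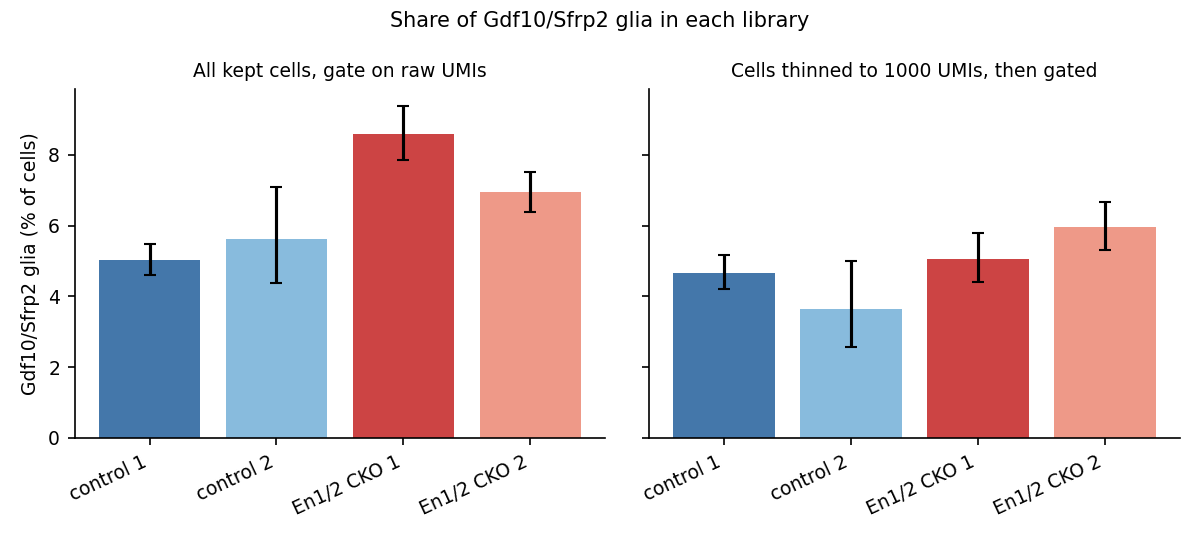
Share of Gdf10/Sfrp2 glia (y axis, percent of cells) in each library, on raw UMIs (left) and after thinning each cell to 1000 UMIs (right). Bars are single libraries and lines are exact 95% intervals, which cover counting error only. The mutant bars stand at 8.59% and 6.94% on the left and at 5.06% and 5.95% on the right, above the control bars in both panels.

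The genes that led the Gdf10/Sfrp2 glia over the Aqp4/Bcan astroglia, outside the genes of the rule, were described with no test, since the cells had been chosen by measured counts. Gucy1a1, a subunit of the nitric oxide receptor guanylate cyclase, came first. It stood at 153, 306, 235 and 121 CPM in the Gdf10/Sfrp2 glia and at 5.88, 33.1, 38.5 and 42.4 CPM in the astroglia, a mean log2 ratio of 2.47 ± 0.87 (SD over 4 libraries, 10 CPM added). Phlda1 stood at 194, 239.7, 171 and 164 CPM, against 29.4 to 33.1 CPM in the astroglia. Ackr3, the scavenging receptor of the chemokine Cxcl12, stood at 46.6 to 111 CPM against 0 to 19.6 CPM. Spock3, a matrix proteoglycan, stood at 173 to 244 CPM against 22.8 to 133 CPM, and the libraries ranged alike in both genotypes. Dach1, Shroom3, Lmcd1, Slitrk6, Rxrg, Pcp4l1, Pcna, Atp1b1, Grm3, Gm29521 and A830029E22Rik completed the 15 leading genes. Astroglia of control 2 were only 16 cells with 30170 UMIs, where 3 counts are worth 99.4 CPM, and a listed 0 there allows a level up to that floor.

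The 10 leading genes over the remaining glia began with Fgf15 and Tnc. Fgf15, an Fgf ligand, stood at 219.5, 159.8, 74.2 and 82.6 CPM, against 21.6, 6.82, 4.85 and 26.8 CPM. Tnc, the gene of tenascin C, stood at 493, 299.6, 347 and 438 CPM against 68.2 to 84.2 CPM. In the astroglia, however, Tnc was at 730, 99.4, 419 and 541 CPM, and thus higher there in 3 of 4 libraries. Metrn, which encodes a secreted glial differentiation factor, stood at 226 to 276 CPM, against 46.7 to 73.1 CPM in the remaining glia and 121 to 200 CPM in the astroglia. Grm3, a metabotropic glutamate receptor, Cpxm1, Cdh4, Col2a1, Phlda1, Shroom3 and A830029E22Rik completed the 10. Only genes that stood higher in all 4 libraries entered this list and the list of leading genes over the astroglia. Of all genes with a mean of at least 20 CPM, 18.5% stood above the remaining glia and 18.7% above the astroglia in all 4.

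Other genes stood lower in the Gdf10/Sfrp2 glia than in the astroglia. Apoe, the main lipid carrier of the brain, stood at 165, 79.9, 131 and 319 CPM in the Gdf10/Sfrp2 glia, against 2759, 1293, 1381 and 2915 CPM in the astroglia. Slc14a2, a urea transporter, was at 10.4 to 21.8 CPM against 133 to 342 CPM, and Meis2, a homeodomain factor, at 33.3 to 66.2 CPM against 254 to 365 CPM. Spon1, Mia, Mgll, Nppc, Paqr7, Nxph1 and Clu followed. Only genes that stood lower than in the astroglia in all 4 libraries entered this list of 10. Of 7876 genes with a mean of at least 20 CPM, 10.9% stood lower in all 4.

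**Figure D2:**
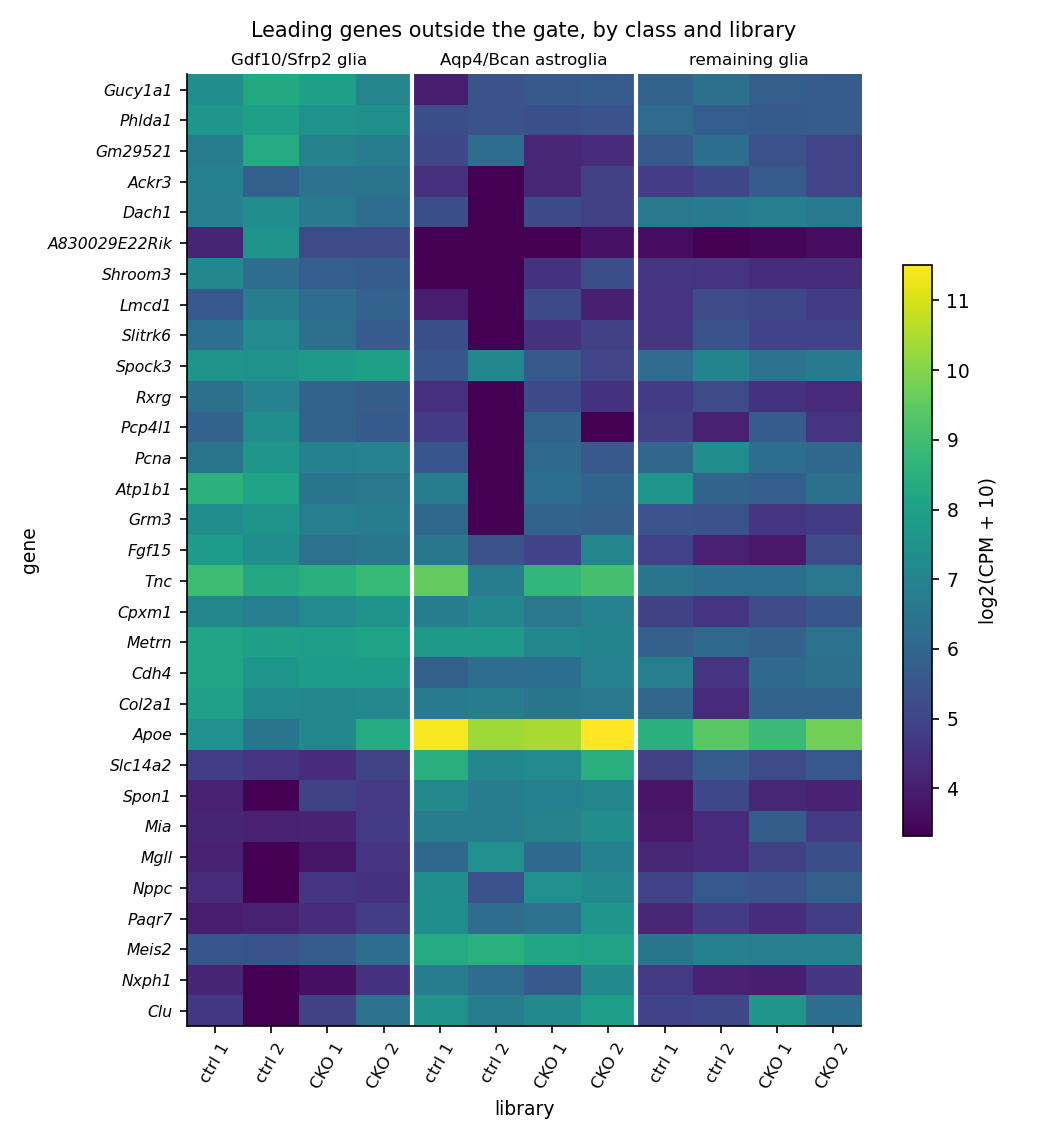
Levels of the leading genes outside the rule (rows) as log2(CPM + 10) in Gdf10/Sfrp2 glia, Aqp4/Bcan astroglia and remaining glia of each library (columns). The first 21 rows are brightest in the left block relative to 1 or both of the other blocks, and the last 10 rows, from Apoe to Clu, are brightest in the middle block.

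The cells also differed among themselves. With the members split by whether they held a Gdf10 UMI, and genes picked after their values had been seen, Gucy1a1 stood higher beside Gdf10 in every library, at 193, 405, 407 and 224 CPM against 104, 163, 168 and 86.7 CPM without. Pdlim3, a PDZ and LIM domain protein, went from 89.2, 169, 156 and 113 CPM with Gdf10 to 40.5, 81.5, 57.9 and 61.6 CPM without. Rfc3, Exosc8 and Csrp2 led this side, at mean log2 ratios of 1.38, 1.36 and 1.19. Each had no count in control 2 cells without Gdf10. Shroom3, Pcp4l1 and Rrm2 were also higher with Gdf10 in every library. Hs3st1, a heparan sulfate sulfotransferase, went the other way, with 63.7, 0, 41.8 and 42.9 CPM beside Gdf10 and 231, 195, 206 and 223 CPM without. Apoe, Gm17750, Mt3, Luzp2, Wnt7b, Mfge8 and Socs2 were likewise higher without Gdf10 in all 4 libraries. One direction in all 4 libraries and a minimum level were conditions for listing a gene here. The share of all genes that met them is not given. Of the genes higher without Gdf10, Mt3, Apoe, Luzp2, Mfge8 and Wnt7b also stood higher in the astroglia than in the Gdf10/Sfrp2 glia of the same library. Of all genes with a mean of at least 20 CPM, 10.9% did so in all 4 libraries. For Hs3st1, Gm17750 and Socs2 that contrast is not given here. Sfrp2 itself was detected in 54.2% to 62.5% of cells with Gdf10 and in 77.2% to 85.2% of cells without, a contrast that the 2-UMI rule forces in part.

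The targeted genes are given before the rest of the genotype comparison. En2 stood at 104 and 99.9 CPM in control Gdf10/Sfrp2 glia and at 35.1 and 24.9 CPM in the mutant ones. Both mutants lay below both controls, with a log2 fold change of -1.77 (SE 0.28, edgeR adjusted p = 0.573). The drop was not particular to these cells. In the remaining glia En2 stood at 77.3 and 44.4 CPM in the controls and at 20.8 and 15.8 CPM in the mutants. In all kept cells it stood at 101 and 48.1 CPM against 30.3 and 15.6 CPM (log2 fold change -1.78, SE 0.48, edgeR adjusted p = 0.957, DESeq2 adjusted p = 0.0490). En1 stood at 83.2 and 39.9 CPM in the controls and at 39.7 and 41.3 CPM in the mutants, where the groups overlapped (log2 fold change -0.84, SE 0.31, edgeR adjusted p = 0.604). In all kept cells En1 stood at 110 and 76.8 CPM against 69.1 and 62.6 CPM (log2 fold change -0.58, SE 0.24, edgeR adjusted p = 0.957, DESeq2 adjusted p = 0.9999). Which exons the floxed alleles lose is not given in the sources used here, and reads from the 3' end can come from outside them, so that remaining counts do not measure remaining protein. TdTom, the reporter transcript, stood at 366 and 553 CPM in the controls and at 403.5 and 515 CPM in the mutants.

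Gdf10 itself separated the genotypes. In the Gdf10/Sfrp2 glia it stood at 701 and 652 CPM in the controls and at 171 and 174 CPM in the mutants, and since the rule counts Gdf10, these values are a description. The comparison was therefore repeated in cells taken with Timp4, Sfrp2 and Egfl6 only, a choice made after seeing the data. In these 411, 44, 389 and 490 cells Gdf10 stood at 539 and 365 CPM in the controls and at 88.7 and 103 CPM in the mutants. The means were 452 ± 124 and 95.7 ± 9.85 CPM (SD, n = 2), and the log2 fold change was -2.29 (SE 0.31). It missed the threshold with edgeR's quasi-likelihood test (adjusted p = 0.102 over 9281 genes, of which 0 or 0% were called) and passed it with DESeq2 (adjusted p = 0.00336). Without control 1 the log2 fold change was -1.93 (edgeR adjusted p = 5.1e-05) and without control 2 it was -2.48 (edgeR adjusted p = 1.54e-32), where the lone control is assumed to vary as little as the mutants.

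Fewer cells held a Gdf10 UMI as well. In cells gated without Gdf10 the gene was detected in 42.1% (37.3% to 47.0%) and 38.6% (24.4% to 54.5%) of control cells and in 16.5% (12.9% to 20.5%) and 12.9% (10.0% to 16.1%) of mutant cells. After thinning to 1000 UMIs the shares were 46.2% and 21.7% in the controls and 10.4% and 11.2% in the mutants, but only 5 of 23 cells stood behind the second value, whose interval ran from 7.46% to 43.7%. Free RNA can give UMIs in cells that do not express a gene, so that microglia and neurons outside the rule served as background. In microglia, at median depths of 3237.5 to 4674 UMIs, Gdf10 was detected in 2.02%, 0%, 1.54% and 0.870% of cells. In neurons, at median depths of 1252 to 2347 UMIs, it was detected in 0.505%, 1.59%, 0.575% and 0%. The cells gated without Gdf10 had median depths of 1220.5 to 2972 UMIs and lay above this background in every library. For other genes of the rule the background was less even. Microglia held a Sfrp2 UMI in 2.02% and 1.54% of control cells and in 1.54% and 11.7% of mutant cells. Timp4 was found in 1.01%, 0%, 1.54% and 7.39% of microglia in the same order. Left out of these shares were 16 cells of En1/2 CKO 2 that met both the rule and the microglial gate, against 0 in each other library. Among microglia both genes were thus most often detected in En1/2 CKO 2. What this adds to the share of Gdf10/Sfrp2 glia there was not tested. In all kept cells together Gdf10 stood at 80.5 and 70.1 CPM in the controls and at 36.6 and 31.6 CPM in the mutants (log2 fold change -1.22, SE 0.20, edgeR adjusted p = 0.957, DESeq2 adjusted p = 0.164). Both mutants thus lay below both controls with no gate as well, and that difference did not pass either test.

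**Figure D3:**
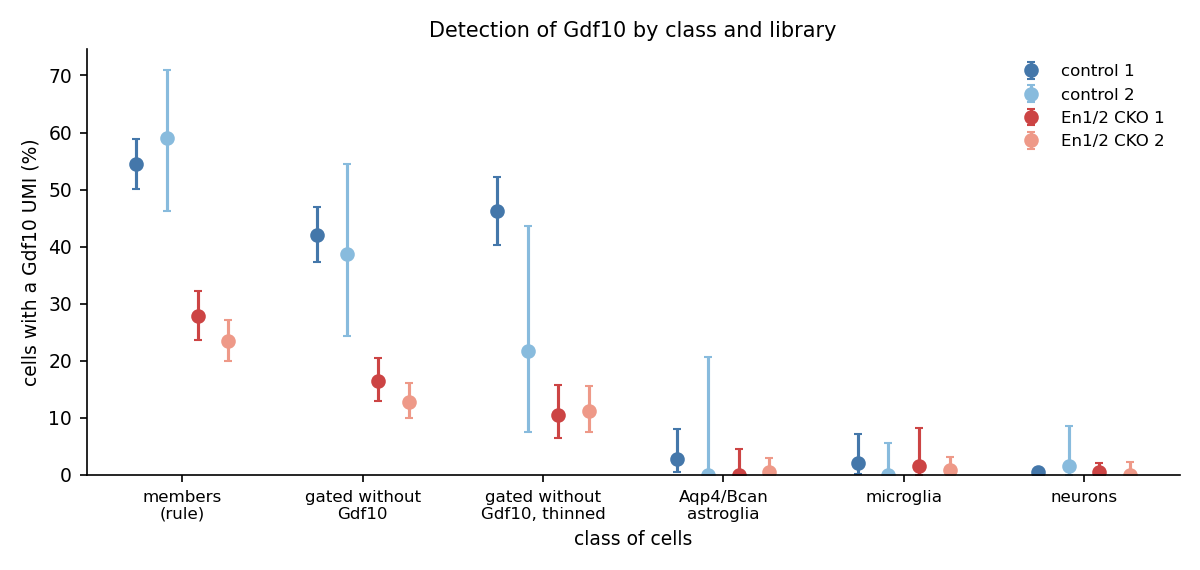
Percent of cells with a Gdf10 UMI (y axis) by class (x axis) and library (colours). Points are single libraries and lines exact 95% intervals of counting error. Among cells gated without Gdf10, the controls stand at 42.1% and 38.6% and the mutants at 16.5% and 12.9%, while microglia and neurons lie at or below 2.02%.

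Timp4, Sfrp2 and Egfl6 overlapped between the genotypes. In cells gated without Timp4, its level was 460.2 and 171 CPM in the controls and 273 and 435 CPM in the mutants (log2 fold change 0.09, SE 0.44, edgeR adjusted p = 0.976). Sfrp2, in cells gated without it, stood at 1272 and 975 CPM in the controls and at 684 and 989 CPM in the mutants (-0.45, SE 0.33, edgeR adjusted p = 0.638). Egfl6 stood at 129 and 55.7 CPM against 49.9 and 58.5 CPM (-0.98, SE 0.33, edgeR adjusted p = 0.561), and control 1 alone was high. These values turned on single controls. Timp4 was at -0.36 without control 2 and at 1.02 without control 1 (edgeR adjusted p = 0.452 and 0.111). Without control 2, Sfrp2 was at -0.59 (edgeR adjusted p = 0.0408) and Egfl6 at -1.22 (edgeR adjusted p = 0.000597), and without control 1 they were at -0.22 and -0.08.

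Slc1a3, the glutamate transporter of radial glia and astroglia, also lay lower in both mutants than in both controls. In cells gated without it, it stood at 3109 and 3069 CPM in the controls and at 1450.2 and 1424 CPM in the mutants, so that the replicates of a genotype lay close together. The log2 fold change was -1.12 (SE 0.33, edgeR adjusted p = 0.560 over 9737 genes, of which 0 or 0% were called). It did not pass with DESeq2 either (adjusted p = 0.9998). The log2 fold change was -1.13 without control 1 and -1.09 without control 2, in fits where the lone control is assumed to vary as little as the mutants. Fabp7, a fatty acid binding protein of radial glia, ranged from 4303 to 17597 CPM between the controls and stood at 10905 and 9361 CPM in the mutants. Sparcl1, a secreted matrix protein of radial glia, stood at 2386 and 1158 CPM against 1148 and 1268 CPM. Neither separated the genotypes. Fabp7 turned from -0.83 without control 1 to 1.26 without control 2, both past the threshold (edgeR adjusted p = 0.000291 and 8.61e-08), and Sparcl1 passed without control 2 at -0.96 (edgeR adjusted p = 0.000116). In the remaining glia Slc1a3 stood at 414 and 502 CPM in the controls and at 406 and 428 CPM in the mutants. These levels are a description, since Slc1a3 counts entered the choice of both classes.

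**Figure D4:**
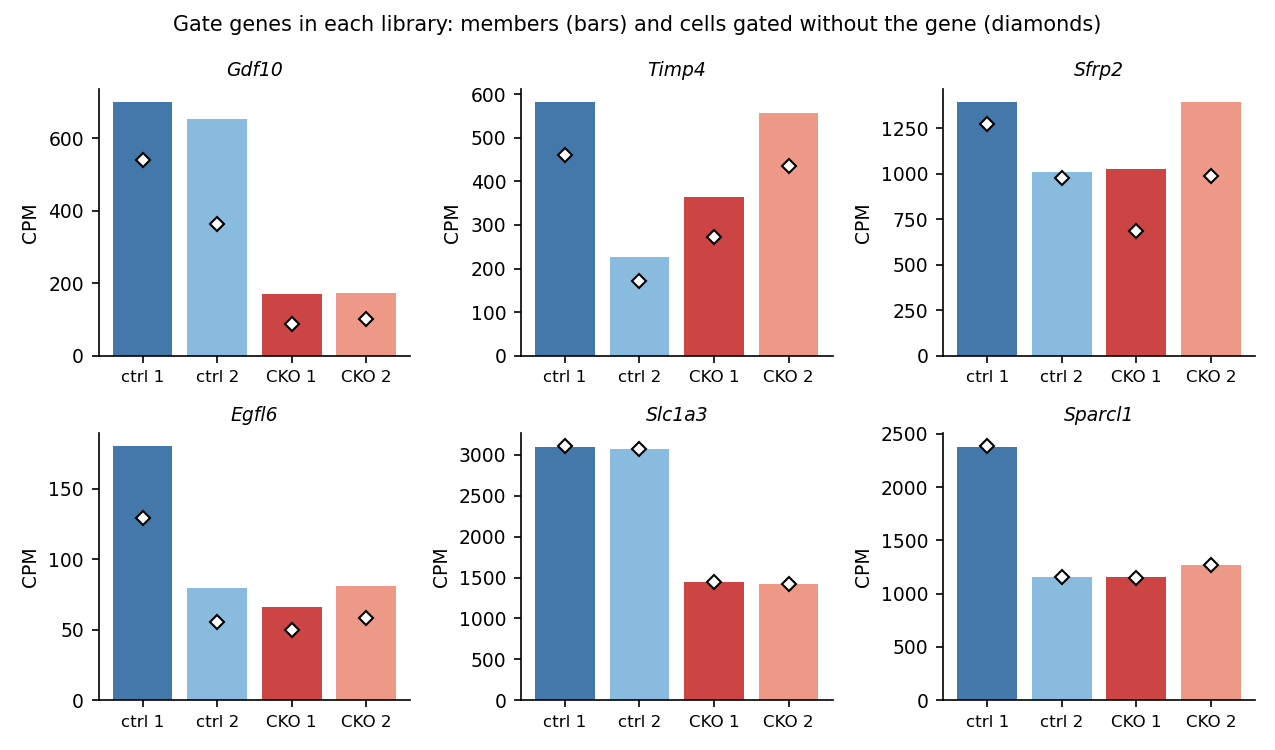
Levels (CPM, y axis) of 6 genes of the rule in each library (x axis). Bars are the Gdf10/Sfrp2 glia and diamonds the cells gated with the plotted gene left out, 1 value per library. Gdf10 and Slc1a3 stand lower in both mutants than in both controls, for bars and diamonds alike, and the other 4 genes overlap between genotypes.

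The stretches upstream of Gdf10, of Slc1a3 and of Timp4, whose level overlapped between the genotypes, are shown because Engrailed proteins bind DNA through a homeodomain. Each is the 250 bases before the transcription start from RefSeq on GRCm38.p6, written 5' to 3' on the gene's strand, with TAATT, the core of many homeodomain sites, in capitals. The windows are chr14:33923337-33923586 on the plus strand for Gdf10, chr15:8710808-8711057 on the minus strand for Slc1a3 and chr6:115252206-115252455 on the minus strand for Timp4.
Gdf10: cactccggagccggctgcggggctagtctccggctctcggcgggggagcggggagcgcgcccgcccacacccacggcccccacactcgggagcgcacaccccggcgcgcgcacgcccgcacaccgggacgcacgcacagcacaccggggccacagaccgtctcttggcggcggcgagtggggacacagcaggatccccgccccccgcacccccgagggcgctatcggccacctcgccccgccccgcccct
Slc1a3: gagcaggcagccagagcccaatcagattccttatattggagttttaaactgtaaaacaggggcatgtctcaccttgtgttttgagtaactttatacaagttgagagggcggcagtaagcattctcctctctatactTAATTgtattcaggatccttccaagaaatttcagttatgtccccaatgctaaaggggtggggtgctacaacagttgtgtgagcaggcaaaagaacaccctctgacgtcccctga
Timp4: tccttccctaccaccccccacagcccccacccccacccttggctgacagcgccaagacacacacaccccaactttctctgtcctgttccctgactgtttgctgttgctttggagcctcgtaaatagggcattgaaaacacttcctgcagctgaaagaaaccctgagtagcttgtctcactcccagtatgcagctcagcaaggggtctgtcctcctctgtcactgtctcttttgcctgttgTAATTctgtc

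The Gdf10 window had 78.8% G and C and held no TAATT on either strand, and the windows of Slc1a3 and Timp4 held 1 each. TAATT, searched on both strands, occurs in 25% of 32851 promoter windows of this length. It was added after TAATTA, which contains it and occurs in 4.84% of windows, had found no match in the windows of Gdf10, Timp4, Sfrp2, Egfl6 and Slc1a3. The NFI motif TTGGCA (12.3% of windows) and the RBPJ motif GTGGGAA (5.42% of windows) had no match in these 5 windows either. A match describes letters in the window and not a bound site.

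Over all genes, 0 of 9744 tested (0%) passed an adjusted p of 0.05 between genotypes in the Gdf10/Sfrp2 glia with edgeR. At an unadjusted p under 0.05 there were 353 higher (3.62%) and 432 lower (4.43%). DESeq2 called 3 of 16664 genes (0.018%), which were Gdf10 and Atp1b1, lower in mutants, and Gm10076, higher in mutants, with Gdf10 a gene of the rule. Both mutants lay above both controls for 2044 genes (21%) and below both for 1609 (16.5%), together 37.5% of the genes tested, and counts of this kind are read against those shares. The count of calls was higher where a library was left out, at 310 without control 1, 1248 without control 2, 7 without En1/2 CKO 1 and 2 without En1/2 CKO 2. The spread between libraries, as a coefficient of variation, was 0.348 between the controls and 0.119 between the mutants, and a fit without a control takes on more of the smaller value. Of the genes named for the genotype contrast outside the rule, Atp1b1, Tmem14c, En2 and Gm10076 passed in both fits that left out a control. En1, Nkain3, Anxa2, Apold1 and Otof passed without control 2 and not without control 1. Pianp passed without control 2, and the fit without control 1 gave no value for it.

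**Figure D5:**
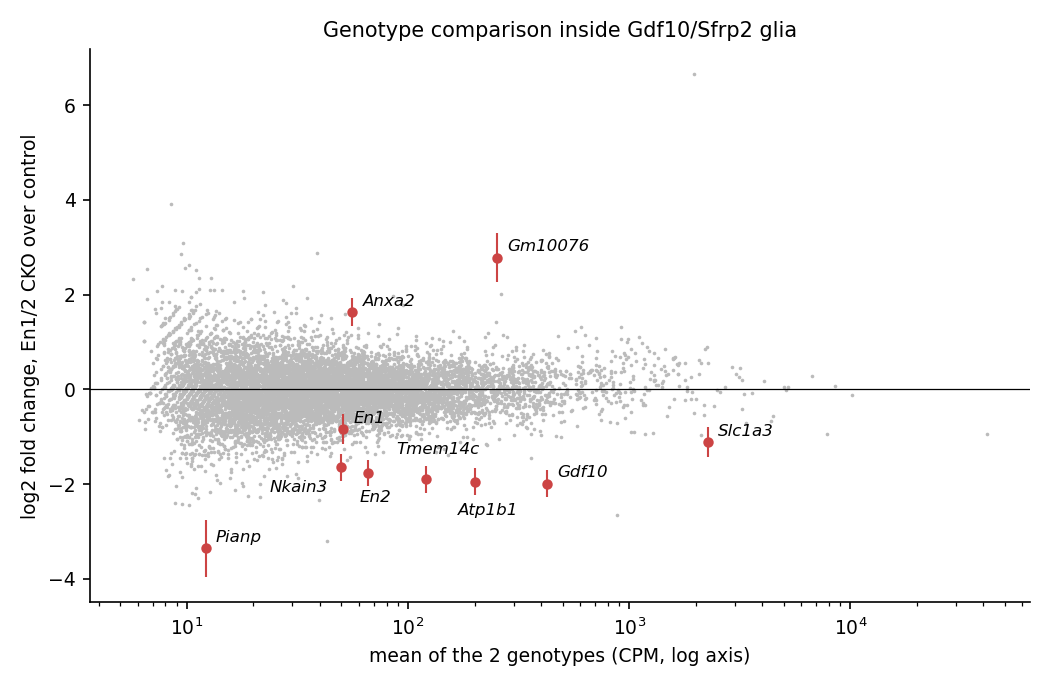
Log2 fold change of mutant over control (y axis) against the mean level of both genotypes (CPM, log axis) for genes tested in Gdf10/Sfrp2 glia, without genes that had no count in a genotype. Grey points are genes, and red points with lines are named genes with their SE. Gdf10, Atp1b1, Tmem14c, En2, Nkain3 and Slc1a3 lie between -2 and -1, and Gm10076 lies at 2.78.

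The genes outside the rule with the smallest unadjusted p were of mixed function. Atp1b1, the beta subunit of the sodium-potassium pump (chr1:164437109-164458355, GRCm38), stood at 372 and 259.6 CPM in the controls and at 81.4 and 87.2 CPM in the mutants (log2 fold change -1.95, SE 0.29, edgeR adjusted p = 0.482). In all other kept cells Atp1b1 was at 211 and 57.3 CPM in the controls and 91.9 and 82.0 CPM in the mutants, where the groups overlapped. Tmem14c, a mitochondrial membrane protein of haem synthesis (chr13:41016292-41022586), stood at 216 and 159.8 CPM against 57.9 and 46.7 CPM (-1.90, SE 0.28, edgeR adjusted p = 0.482). It was lower in all other kept cells of the mutants as well, at 118 and 101 CPM against 46.0 and 35.1 CPM. Nkain3 (chr4:20118874-20778866) stood at 82.0 and 66.6 CPM against 23.4 and 26.5 CPM (-1.65, SE 0.28, edgeR adjusted p = 0.573).

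Higher in both mutants were Anxa2, a calcium-dependent membrane-binding protein, and Gm10076, annotated as a long non-coding RNA. Anxa2 (chr9:69453620-69491795) stood at 30.0 and 19.97 CPM in the controls and at 90.5 and 83.3 CPM in the mutants (1.63, SE 0.30, edgeR adjusted p = 0.573). Gm10076 (chr14:105681828-105682211) stood at 69.3 and 53.3 CPM against 243 and 644 CPM (2.78, SE 0.52, edgeR adjusted p = 0.573). Both were also higher in all other kept cells of the mutants, with Anxa2 at 61.9 and 57.7 CPM against 20.2 and 19.0 CPM, and Gm10076 at 243 and 653 CPM against 78.0 and 80.1 CPM. Apold1 and Otof had no count in either control and 77 counts each over both mutants, hence at least 9.24-fold higher than a floor of 3 counts over both controls. Pianp stood at 30.0 and 13.3 CPM in the controls and at 1.30 and 3.89 CPM in the mutants (-3.36, SE 0.61, edgeR adjusted p = 0.573). For Nkain3, Apold1, Otof and Pianp the levels in all other kept cells are not given here. Their differences are thus not shown to be particular to the Gdf10/Sfrp2 glia. En1 and Atp1b1 lie on chromosome 1, and En2 and Otof on chromosome 5, where the mutants also carried the floxed alleles and DNA linked to them, which cannot be told apart from the mutation.

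The BMP and TGF-beta list of 33 genes held 22 tested genes outside the rule, with 0 called, 10 with a positive and 12 with a negative log2 fold change and a median of -0.11, against -0.03 over all genes tested. Both mutants lay above both controls for 3 of the 22 and below both for 7, where 21% and 16.5% of all genes did. Among ligands besides Gdf10, Tgfb2 stood at 113 and 86.5 CPM against 104 and 126 CPM and overlapped, and Bmp5, Bmp6 and Bmp7 were at or under 10.9 CPM in every library. The receptors Bmpr1a, Bmpr1b, Bmpr2, Acvr2a and Tgfbr1 were all among the 7 lower genes. Bmpr1a, a type I receptor, stood at 103 and 153 CPM against 74.2 and 76.3 CPM, and Tgfbr1, the TGF-beta type I receptor, at 75.1 and 59.9 CPM against 33.8 and 38.9 CPM (log2 fold change -0.97, SE 0.28, edgeR adjusted p = 0.599). The secreted inhibitors Fst, at 58.9 and 59.9 CPM against 27.3 and 21.8 CPM, and Nog, at 39.3 and 53.3 CPM against 32.5 and 38.9 CPM, were the other two.

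Of the Smad and Id genes tested, 3 lay apart between the genotypes. Smad3 and Smad5, effectors of TGF-beta and BMP receptors, stood higher in both mutants, as did Id1, a standard target of BMP signals. Id1 stood at 75.1 and 127 CPM in the controls and at 271 and 167 CPM in the mutants (log2 fold change 1.23, SE 0.39, edgeR adjusted p = 0.599). It stood at 47.4 and 119 CPM against 188 and 145 CPM in the remaining glia too, and the difference of the 2 effects was -0.06 (SE 0.26). Id3, another target, stood at 733 and 1338 CPM against 1236 and 871 CPM and overlapped, as did Id2, Id4, Smad1, Smad2, Smad4 and Smad7.

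Radial progenitor genes had no common direction. All 20 listed genes were tested and 0 were called, with a median of -0.10. In both mutants 5 lay higher and 2 lower, where 21% and 16.5% of all genes did. The 5 were Hes1, Hes5, Sox2, Vim and Mt3. Sox2, a transcription factor of neural progenitors, stood at 268 and 319.5 CPM against 599 and 445 CPM (log2 fold change 0.83, SE 0.30, edgeR adjusted p = 0.604). Hes5, the main Notch effector of radial glia, stood at 469 and 519 CPM against 619.5 and 563 CPM. The 2 lower genes were Pax6, at 231 and 173 CPM against 156 and 121 CPM, and Notch1, at 223 and 146 CPM against 143 and 119.9 CPM.

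Signalling lists showed genes on both sides. Of all genes, 21% lay higher and 16.5% lower in both mutants. In the Notch list 15 genes were tested and 0 called (median -0.35), with Hes1, Hes5, Nrarp and Mfng higher and Notch1, Notch3, Dner and Rbpj lower in both mutants. In the Fgf list 14 were tested and 0 called (median 0.19), with Fgfr2, Fgfr3, Spry1 and Etv4 higher and Fgf15 and Frs2 lower in both mutants. Fgf15 stood at 219.5 and 159.8 CPM against 74.2 and 82.6 CPM (log2 fold change -1.33, SE 0.28, edgeR adjusted p = 0.599). Fgfr3, the receptor typical of astroglia, stood at 9.24 and 0 CPM against 26.7 and 29.6 CPM, and Spry1, a feedback inhibitor of Fgf signals, at 16.2 and 19.97 CPM against 41.0 and 28.0 CPM. In control 2, 3 counts are worth 19.97 CPM, so that the control 2 values of both genes lie at or under that floor. In the Shh list 9 were tested and 0 called (median -0.32). The pathway targets Ptch1, Gli1 and Hhip stood lower in both mutants, and Gli2 stood higher in both. Ptch1 stood at 83.2 and 113 CPM against 65.7 and 65.4 CPM. In the Wnt list 14 were tested outside the rule and 0 called (median -0.26). Axin2, Fzd1 and Wnt7b lay higher and Fzd2 and Wnt5a lower in both mutants. Axin2, a target of canonical Wnt signals, stood at 13.9 and 13.3 CPM against 34.5 and 24.1 CPM, and its control 2 value also lies under the floor.

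More matrix and adhesion genes lay lower than higher. Of 16 tested genes of that list outside the rule, 0 were called and 13 had a negative log2 fold change. Their median was -0.31, against -0.03 over all genes tested. In both mutants 7 of the 16 lay lower and 0 higher, where 16.5% and 21% of all genes did. Nid1, the gene of the basement membrane protein nidogen, stood at 550.0 and 433 CPM against 321.5 and 322 CPM (log2 fold change -0.64, SE 0.28, edgeR adjusted p = 0.615). Cdh11 and Cdh2, 2 classical cadherins, stood at 139 and 153 CPM against 76.1 and 87.2 CPM, and at 384 and 399 CPM against 242 and 223.5 CPM. Timp3, Ncan, Itga6 and Lamc1 were the other 4. Among 11 tested genes of glutamate, GABA and ion transport outside the rule, 0 were called, with a median of -0.27. Kcnj10 lay higher and Slc6a9, Gja1 and Gria4 lower in both mutants. The control 2 value of Kcnj10 lay under the floor of 19.97 CPM that 3 counts are worth there. Gja1, the gap junction gene of astroglia, stood at 34.7 and 33.3 CPM against 14.3 and 20.2 CPM, while Slc1a2, the other glial glutamate transporter, overlapped at 157 and 106.5 CPM against 117 and 114 CPM.

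The Bergmann and astroglial lists had no common direction. Of 19 tested Bergmann genes outside the rule, 0 were called, and 10 had positive and 9 negative log2 fold changes (median 0.06). In both mutants 5 lay higher and 5 lower, where 21% and 16.5% of all genes did. Aldoc, the glycolytic enzyme of glia, stood at 117 and 119.8 CPM against 272 and 209.5 CPM (log2 fold change 1.02, SE 0.29, edgeR adjusted p = 0.599). Ptprz1 stood at 910.5 and 806 CPM against 649.5 and 651 CPM. Of 14 astroglial genes tested outside the rule, 0 were called (median 0.13). Neuronal markers were negative in all 7 tested genes (median -0.52). Of these, Stmn2, Dcx, Elavl4 and Snap25 lay lower in both mutants, where 16.5% of all genes did. With barcodes rich in transcripts of microglia, choroid plexus, blood or neurons removed, a choice made after seeing the data, edgeR again called 0 genes, and Gdf10 was at -1.89 (SE 0.33), En2 at -2.03 (SE 0.32) and Atp1b1 at -2.13 (SE 0.34).

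The rule limits transcripts of dividing cells, and 14 other cell cycle genes were followed. Of these, 9 stood above the astroglia in all 4 libraries and 0 below, where 18.7% and 10.9% of all genes did. Above the remaining glia stood 9 of the 14, and 1 below, where 18.5% and 17.3% of all genes did. Pcna, the replication clamp, stood at 78.6, 193, 111 and 114 CPM, against 35.3, 0, 59.9 and 39.1 CPM in the astroglia. The 0 belongs to control 2, where 3 counts in the astroglia are worth 99.4 CPM. Between genotypes 0 of the 14 were called (median -0.05), and only Rrm2 and Tpx2 lay lower in both mutants. Of 10 immediate early and stress genes tested, 0 were called (median 0.20), with Jun, Dnajb1 and Btg2 higher and Jund, Ier3 and Dusp1 lower in both mutants.

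Where the genotype effect in Gdf10/Sfrp2 glia was set against that in Aqp4/Bcan astroglia, with the library as a block, 4 of 6011 genes passed (0.0665%). They were the haemoglobin genes Hbb-y, Hba-x and Hba-a1 and the Notch-related gene Dner. In control 1, control 2, En1/2 CKO 1 and En1/2 CKO 2, Dner stood at 135, 79.9, 39.0 and 55.3 CPM in the Gdf10/Sfrp2 glia and at 153, 265, 192 and 225 CPM in the astroglia. Over all genes edgeR called 0 without control 1, and DESeq2 called 0. Without En1/2 CKO 1 only Hbb-y of the 4 passed (edgeR adjusted p = 0.00424). Dner lies on chromosome 1 with the floxed En1 allele, and linked DNA cannot be told apart from the mutation. Against the remaining glia 0 of 11028 genes passed (0%) with edgeR, where 282 were more positive and 236 more negative at an unadjusted p under 0.05, and DESeq2 also called 0.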

How the data were processed

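For each of the 4 libraries the authors deposited a matrix of UMI counts that were not normalised, with lists of barcodes and gene names. Cell Ranger 6.1.0 wrote the matrices, per the file headers, and the build was mm10, per the submitters' processing notes. The files held 32286 genes, TdTom included. Whether intron reads were counted is not given in the sources used here. Library totals ran from 5305154 to 21021428 UMIs.

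The filter on barcodes and the rule were applied to raw counts. The cells, lists and tests were chosen with earlier results of these data known. Likely doublets were kept, and their removal by Scrublet (scanpy 1.11.5, the highest scores at 0.8% per 1000 barcodes where the automatic threshold failed), which took 3.65% to 9.22% of kept barcodes, was an alternative. Counts were summed per library and class. edgeR 4.0.16 (TMM scaling, its default low-count filter and its 2-sided quasi-likelihood test, with Benjamini-Hochberg adjustment over all genes tested and a threshold of 0.05) compared genotypes, and DESeq2 1.42.0 was an alternative. The SE was derived from the F statistic. Differences of genotype effects between classes were interactions with the library as a block. P-values measure the spread between pools, which may be technical. Shares were compared by exact permutation of libraries. In data simulated for the genotype comparison, edgeR recovered 26% of 2-fold and 88% of 4-fold changes, with 4 false calls, over 9445 genes. The simulation gave both genotypes the same dispersion and changed only genes above a minimum expected count. The real spread was 0.348 between the controls and 0.119 between the mutants, so these rates need not hold for the real libraries.

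Named genes were the rule's genes, En1, En2, genes past the threshold with at least 50 CPM completed to 10 genes in order of unadjusted p, the 15 and 10 leading genes of the class contrasts, and list members, of which a few with at least 20 CPM are given with values. The 10 genes highest in astroglia, genes split by Gdf10 detection, the 3 genes DESeq2 called and list members of lower level were added after their values had been seen. Gene coordinates come from the GRCm38 annotation, where 327 of 328 symbols matched, and promoter windows from RefSeq. Other alternatives were RLE size factors, the absence of a low-count filter, barcodes with 1000 genes and up to 5% mitochondrial UMIs, a gate of 3 UMIs, a gate without Sfrp2, thinning, the replicate number as a block and each library left out. Added after seeing the data were gates without each gene of the rule, a crossed block and removal of barcodes rich in transcripts of other cell types.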

Additional observations from a re-analysis of the deposited data

Results flagged for a closer look

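The genotype effect differed between Gdf10/Sfrp2 glia and Aqp4/Bcan astroglia for 4 genes, by edgeR's quasi-likelihood test of the interaction. Hbb-y differed by -2.47 (SE 0.34, adjusted p = 2.66e-09), Hba-x by -2.47 (SE 0.35, adjusted p = 2.9e-09) and Hba-a1 by -2.21 (SE 0.37, adjusted p = 3.25e-06) on the log2 scale. Hbb-y stood at 4822 and 6.66 CPM in control and at 2707 and 1155 CPM in mutant Gdf10/Sfrp2 glia, and at 553, 66.3, 2506 and 678 CPM in the astroglia of the same libraries. The high value of control 1 carried the contrast. Without control 1 the difference for Hbb-y was 3.45 (adjusted p = 0.673), and without En1/2 CKO 1 the adjusted p was 0.00424 for Hbb-y, 0.202 for Hba-x and 0.439 for Hba-a1. With the stricter cell filter Hba-x and Hba-a1 did not pass (adjusted p = 0.976 for each). At least 20 haemoglobin UMIs were found in 4 of the 523 Gdf10/Sfrp2 glia of control 1.

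Dner, a membrane ligand of the Notch family, differed by -1.68 (SE 0.38, adjusted p = 0.0196). Without control 1 the difference was -0.68 (adjusted p = 0.771), and without either mutant library the adjusted p was 0.202 or 0.0717. With doublets removed it was -1.54 (adjusted p = 0.374). DESeq2 called none of the 4 genes, each with an adjusted p of 1.00. Dner lies on chromosome 1, as does the floxed allele of En1, and linked DNA cannot be told apart from the mutation.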

How the results depend on the processing

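The count of genes called between genotypes was 0 with RLE size factors, a stricter cell filter, doublets removed, a gate of 3 UMIs, a gate without Sfrp2, thinning, and removal of barcodes of other cell types. It was 3 with DESeq2 and 63 without the low-count filter. With 1 library left out it ranged from 2 to 1248, and fits without a control assume the smaller spread of the mutants. With the replicate number as a block it was 0. The numbers did not pair the libraries (correlation of deviations -0.16), and the crossed pairing, added after seeing the data, called 1 gene, Gm10076. Interaction calls against the astroglia were 0 with DESeq2 and 0 to 5 with a library left out. Against the remaining glia they were 20 without the filter, 3 with the stricter cell filter and 0 to 53 with a library left out.

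The difference in share of kept cells, 2.45 points, was 1.47 with a gate of 3 UMIs, 0.883 without Sfrp2, 1.35 after thinning, 1.68 with the stricter cell filter, where the genotypes overlapped, and 3.55 with barcodes of other cell types removed, and 1.62 to 3.28 with a library left out. The causes were not tested. For the 10 genes named by unadjusted p and En1, 172 values of the genotype contrast were computed under alternatives. Of these, 139 kept their side of the threshold, 33 passed where the reported value had not, and 0 changed sign. Outside these 11 genes signs did turn, for Timp4 (0.09 to -0.36) and Fabp7 (-0.15 to 1.26) without control 2 and for the interaction of Hbb-y (-2.47 to 3.45) without control 1. The 150215 UMIs of control 2 limit every low gene, since 3 counts there are worth 19.97 CPM.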
